A study of Mus musculus with 2 samples.

Results

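Glycogen is the branched glucose polymer in which liver stores sugar after a meal and from which it releases glucose in the fasted state. The genes described here are 9 that encode its synthesis and breakdown in liver, namely Gys2, Gyg, Gbe1, Ugp2, Pgm2, Pygl, Phka2, Ppp1r3b and Ppp1r3c. Their rows were found by gene symbol. Each of the 9 had 1 row in the deposited tables, out of 13326 gene symbols in all, and each reached 1 FPKM (fragments mapped to a gene, scaled to its transcript length and to the size of the library) in both libraries.

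The study asked how hepatic expression of genes for glucose and lipid metabolism differs in mice without adiponectin, a hormone secreted by fat cells. Male C57BL/6J mice aged 12 weeks, either Adipoq-/- or wild type, were fasted overnight before liver RNA was taken. RNA from 9 to 10 mice of a genotype was pooled into 1 library, so there was 1 Adipoq-/- library and 1 wild-type library. The spread between animals was therefore not measured, no test across samples was possible, and no difference below has a replicate check. How the Adipoq-/- allele was made is not stated in the labels, and the Adipoq transcript itself was not analysed here.

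In the synthesis branch, phosphoglucomutase turns glucose 6-phosphate into glucose 1-phosphate, Ugp2 joins this to UTP as UDP-glucose, glycogenin (Gyg) primes a new particle, glycogen synthase (Gys2 in liver) lengthens its chains and Gbe1 adds the branches. In breakdown, glycogen phosphorylase (Pygl in liver) cleaves glucose 1-phosphate from the chains once phosphorylase kinase, whose liver alpha subunit is Phka2, has phosphorylated it. Ppp1r3b and Ppp1r3c bring protein phosphatase 1 to glycogen, where it activates the synthase and inactivates the phosphorylase. Glucagon drives breakdown in the fasted liver through protein kinase A, and insulin favours synthesis after feeding.

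Promoter sequences were matched by symbol to RefSeq (GRCm38.p6, a later build than the one named for the deposited files), and 6 of the 9 genes were matched. Of these, 3 are printed 5′ to 3′ because they span the differences reported below: Gbe1 had the lowest ratio between the libraries, Pygl was the most abundant member and Ppp1r3c had the highest ratio. Each covers 250 bases before the annotated start and 50 after it, at chr16:70313699-70313998 on the plus strand for Gbe1, chr12:70227634-70227933 on the minus strand for Pygl and chr19:36736555-36736854 on the minus strand for Ppp1r3c. Capitals mark every match, on either strand, to TATAAA (a core promoter element), CCAAT (the motif of nuclear factor Y), GGGCGG (the motif of Sp factors), CACGTG (an E-box), TGACG (the core of a cyclic AMP response element), TGTTTAC (a forkhead factor motif) or AGGTCA (a nuclear receptor motif).
Gbe1: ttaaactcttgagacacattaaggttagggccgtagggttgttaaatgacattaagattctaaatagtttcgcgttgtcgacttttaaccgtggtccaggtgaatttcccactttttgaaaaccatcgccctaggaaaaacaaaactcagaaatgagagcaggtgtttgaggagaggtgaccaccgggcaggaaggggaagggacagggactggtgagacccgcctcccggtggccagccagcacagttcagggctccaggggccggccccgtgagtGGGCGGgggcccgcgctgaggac
Pygl: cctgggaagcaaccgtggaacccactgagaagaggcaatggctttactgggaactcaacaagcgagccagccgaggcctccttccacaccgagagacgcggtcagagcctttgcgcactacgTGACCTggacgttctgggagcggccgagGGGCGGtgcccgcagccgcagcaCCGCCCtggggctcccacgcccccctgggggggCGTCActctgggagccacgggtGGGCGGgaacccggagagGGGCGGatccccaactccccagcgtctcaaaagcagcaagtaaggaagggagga
Ppp1r3c: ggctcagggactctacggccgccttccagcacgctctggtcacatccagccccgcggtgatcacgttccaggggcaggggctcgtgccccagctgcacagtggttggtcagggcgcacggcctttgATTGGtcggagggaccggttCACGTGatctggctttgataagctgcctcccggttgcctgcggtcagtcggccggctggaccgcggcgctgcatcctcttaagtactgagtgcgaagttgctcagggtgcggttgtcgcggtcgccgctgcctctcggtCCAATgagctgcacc

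GGGCGG occurred in promoters of 5 of the 6 matched genes (Gyg, Ugp2, Pygl, Gbe1 and Phka2) and was not among the letters of the Ppp1r3c window. Counted by window it occurred in 6 of 7, against 35.7% of all 32851 promoters of the same length. The 7 windows held from 54.3% (Gbe1) to 76% (1 window of Ugp2) G and C, against a median of 52.7% over all promoters. The part of base content in the matches to GGGCGG was not tested. The palindrome CACGTG was found in the Ppp1r3c and Gyg windows, against 7.15% of all promoters. In Ppp1r3c it began 104 bases before the annotated start, between 2 matches to CCAAT, and in Gyg it lay after the start and overlapped a match to TGACG by 2 bases. Both Pygl and Gyg held TGACG, as did 20.8% of all promoters. AGGTCA was found in the Pygl window alone, against 16.3% of all promoters. TATAAA and TGTTTAC were found in none of the 7 windows of these 6 genes (Ugp2 has 2 windows), against 13.6% and 3.65% of all promoters. These matches describe letters only, and no binding was measured.

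All 9 glycogen genes had lower FPKM in the Adipoq-/- library than in the wild-type library, by between 5.33% for Ppp1r3c and 38.8% for Gbe1. The same direction was found for 66.9% of the 11985 genes that reached 1 FPKM in either library. On the log2(FPKM + 1) scale of these deposited values, 2 of the 9 (Gbe1 and Phka2) were 1.5-fold or more lower, against 6.17% of those genes. Summed over the 9 genes, FPKM came to 386 in the Adipoq-/- library and 512 in the wild-type library. In pooled tissue, less RNA per cell cannot be told apart from fewer cells of the type that carries it.

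**Figure D1:**
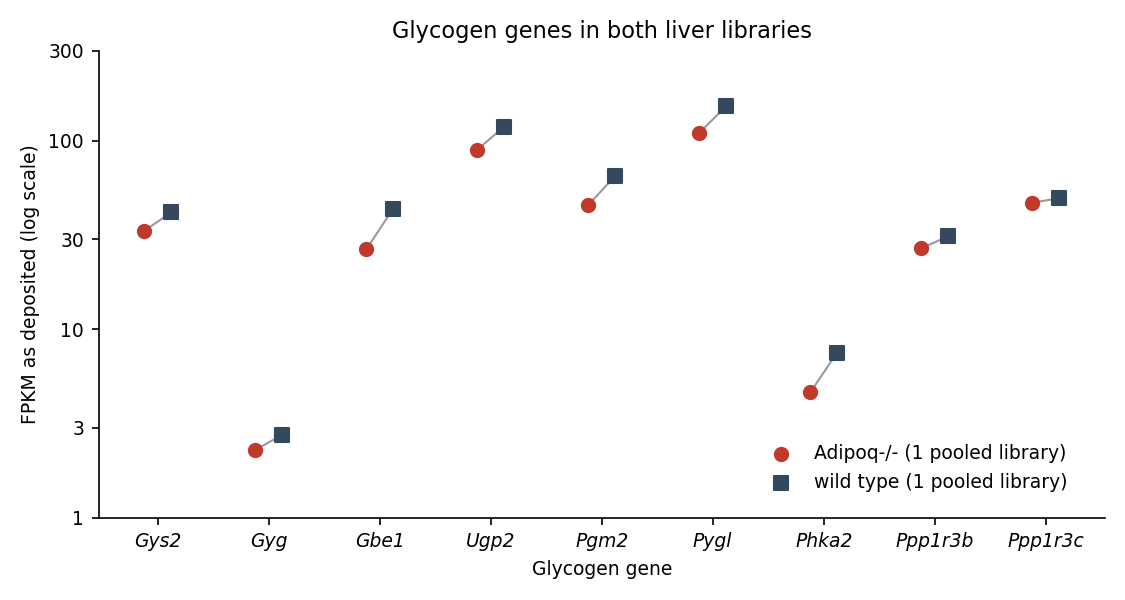
FPKM as deposited (y axis, log scale) of the 9 glycogen genes (x axis) in the Adipoq-/- library (circles, left of each pair) and the wild-type library (squares, right of each pair), 1 pooled library each, so there are no error bars. Every circle lies below its square, and the gap is widest for Gbe1 and Phka2 and narrowest for Ppp1r3c.

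Because most genes had lower FPKM in the Adipoq-/- library, the ratio log2((Adipoq-/- FPKM + 1)/(wild-type FPKM + 1)) was set against its median over all 11985 genes, which was -0.15. Ratios are given relative to this median from here on, and a positive value means higher in the Adipoq-/- library. On this scale 8 of the 9 glycogen genes lay below the all-gene median, where 50% of all genes lie by construction. Their median was -0.25, with a range of -0.54 to 0.07, while the interquartile range over all genes was -0.18 to 0.25. None of the 9 was 1.5-fold or more lower, as 2.61% of all genes were, or 1.5-fold or more higher, as 6.73% were. At a lower limit, a distance of 0.32 on this log2 scale, 3 of the 9 were lower (Gbe1, Phka2 and Pgm2), against 11.7% of all genes, and none was higher, against 19.8%. Pygl lay just inside that limit. Under other scalings of the libraries, the number at least 1.5-fold lower was 1 of 9 with equal upper quartiles (Gbe1, against 4.61% of all genes), 2 of 9 with sums made equal without Mup and mitochondrial genome symbols (Gbe1 and Phka2, against 7.59%) and 4 of 9 with equal sums (Gbe1, Phka2, Pgm2 and Pygl, against 12.5%).

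Among the genes of synthesis, the branching enzyme Gbe1 differed most. It stood at 26.6 FPKM in the Adipoq-/- library and 43.5 FPKM in the wild-type library. The relative log2 ratio was -0.54, or 1.45-fold lower, and 3.45% of all genes had a lower ratio. Among the 2332 genes with a mean of 20 to 100 FPKM, 2.83% did, so its position near the low end was shared by both comparisons. Gbe1 is the gene mutated in glycogen storage disease with poorly branched glycogen.

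Gys2, the liver glycogen synthase, differed less. It had 33.3 FPKM in the Adipoq-/- library and 41.6 FPKM in the wild-type library, a relative log2 ratio of -0.16, within the interquartile range of all genes. Among genes with a mean of 20 to 100 FPKM, 19.9% had a lower ratio, so it lay below the lower quartile of genes of like abundance (-0.12). The amount of branching enzyme transcript per synthase transcript, a ratio taken within a library and so free of any scaling between libraries, was 0.798 in the Adipoq-/- library and 1.04 in the wild-type library. Gbe1 thus had the lower FPKM of the pair in the Adipoq-/- library and the higher one in the wild-type library.

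Ugp2, which makes the UDP-glucose used by the synthase, was the second most abundant member. It had 89.5 FPKM in the Adipoq-/- library and 119 FPKM in the wild-type library (relative log2 ratio -0.25). Its ratio to Gys2 within a library was 2.69 in the Adipoq-/- library and 2.86 in the wild-type library, so the FPKM of both genes differed by similar proportions. Gyg, the self-glucosylating primer, was the least abundant member, at 2.29 FPKM in the Adipoq-/- library and 2.75 FPKM in the wild-type library. Its relative log2 ratio was -0.04, and the added 1 FPKM understates the difference of a gene at this level.

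The row labelled Pgm2 had 45.6 FPKM in the Adipoq-/- library and 64.9 FPKM in the wild-type library, a relative log2 ratio of -0.35, and 10.0% of all genes had a lower one. Phosphoglucomutase works in both directions, feeding synthesis and passing on the product of phosphorylase. The symbols Pgm1 and Pgm2 have been exchanged in the mouse: RefSeq lists each as a synonym of the other, and the deposited rows carry symbols without gene IDs. Which of the genes this row measures is therefore not settled, and it is called by its deposited symbol. The row labelled Pgm1 stood at 1.21 FPKM in the Adipoq-/- library and 1.01 FPKM in the wild-type library, so the row labelled Pgm2 held 97.4% and 98.5% of the summed FPKM of the pair in the Adipoq-/- and wild-type libraries.

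Among the genes of breakdown, the liver phosphorylase Pygl was the most abundant member in both libraries. It had 110.2 FPKM in the Adipoq-/- library and 152 FPKM in the wild-type library, with a relative log2 ratio of -0.31 (1.24-fold lower). Among all genes 12.4% had a lower ratio, and among the 1018 genes that averaged 100 FPKM or more 5.50% did, the median of those abundant genes being 0.26. The brain and muscle forms were scarce in both libraries. Pygb was at 0.883 FPKM in the Adipoq-/- library and 0.865 FPKM in the wild-type library, and Pygm was at 0.454 and 0.737 FPKM in the Adipoq-/- and wild-type libraries. Pygl made up 98.8% of the FPKM summed over these 3 phosphorylases in the Adipoq-/- library and 99.0% in the wild-type library.

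The ratio of Gys2 to Pygl sets the transcript of the storing enzyme against that of the releasing enzyme. It was 0.302 in the Adipoq-/- library and 0.274 in the wild-type library, a log2 difference of 0.14. The interquartile width of all genes on the ratio scale, 0.43, is a spread of single genes. The spread of differences between pairs of genes was not computed, so the size of this difference has no like measure. FPKM as deposited were lower in the Adipoq-/- library for the genes of both branches, as for 66.9% of all genes compared. The relative log2 ratio was -0.21 at the median of Gys2, Gyg, Gbe1 and Ugp2, and -0.38 at the median of Pygl and Phka2.

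Phka2, the X-linked regulatory subunit of liver phosphorylase kinase, came next to Gbe1 in size of difference. It had 4.63 FPKM in the Adipoq-/- library and 7.51 FPKM in the wild-type library, a relative log2 ratio of -0.44, and 5.72% of all genes had a lower one. As deposited, Phka2 was 38.3% lower and Gbe1 38.8% lower. With 0.1 FPKM added in place of 1, their relative log2 ratios were -0.51 and -0.53, so the gap between them depended on the added amount. The beta and gamma subunits of the same enzyme lay near the all-gene median. Phkb, the beta subunit, had 12.52 FPKM in the Adipoq-/- library and 13.99 FPKM in the wild-type library (relative log2 ratio 0.002), and Phkg2, the catalytic subunit of liver, had 11.5 and 13.0 FPKM in the Adipoq-/- and wild-type libraries (-0.01). Per Phkb transcript there was therefore 0.370 of Phka2 in the Adipoq-/- library and 0.537 in the wild-type library, and per Phkg2 transcript 0.402 and 0.576 in the Adipoq-/- and wild-type libraries. The muscle alpha subunit Phka1 was below 1 FPKM in both, and Phka2 held 90.9% of the alpha subunit FPKM in the Adipoq-/- library and 90.4% in the wild-type library. In the GENCODE M21 annotation an antisense gene overlaps exons of Phka2, a noncoding transcript on the opposite strand overlaps Ugp2, and Itgb3bp, also on the opposite strand, overlaps the gene now named Pgm1. Whether the authors' quantification used strand is not stated in the labels, so reads of such pairs cannot be told apart.

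**Figure D2:**
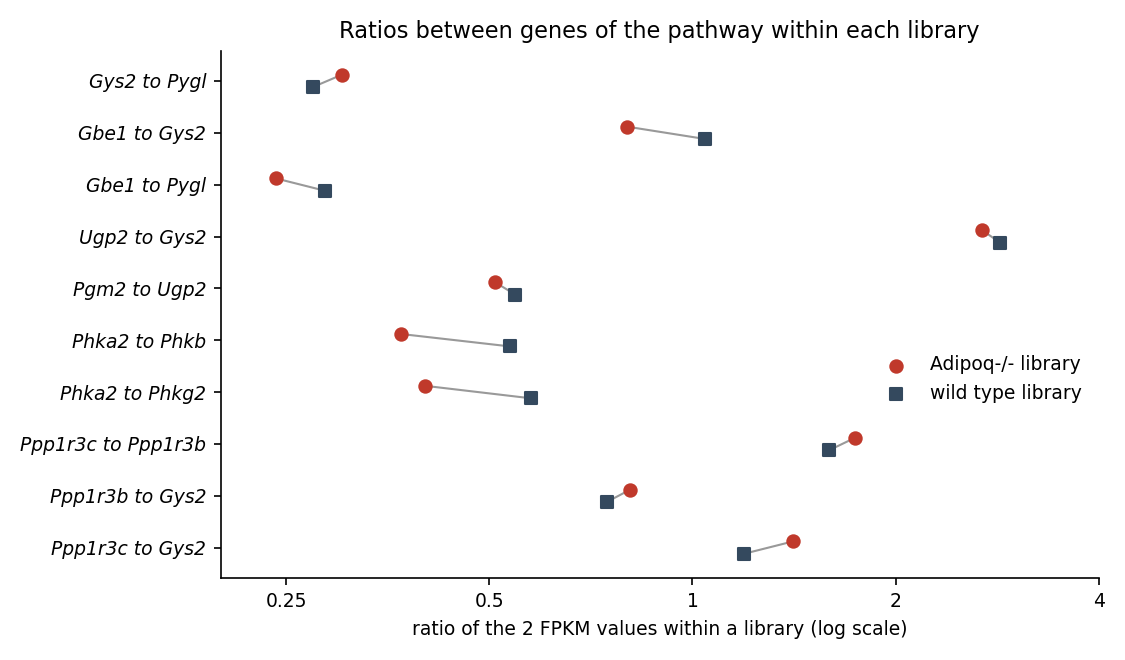
Ratio of the FPKM of 2 genes within a library (x axis, log scale) for 10 pairs (rows), with the Adipoq-/- library as circles above and the wild-type library as squares below, 1 pooled library each. Among the pairs drawn, the widest gaps are those of Phka2 to Phkb, Phka2 to Phkg2 and Gbe1 to Gys2, each lower in the Adipoq-/- library. The ratio of Pgm1 to Pgm2, not drawn, differed more and was higher in the Adipoq-/- library (log2 difference 0.78), with Pgm1 near 1 FPKM.

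The glycogen-targeting subunits of protein phosphatase 1 lay near the all-gene median, as did Gyg. Ppp1r3b, the less abundant of the pair in both libraries, had 26.9 FPKM in the Adipoq-/- library and 31.1 FPKM in the wild-type library (relative log2 ratio -0.05). Ppp1r3c, also known as protein targeting to glycogen, had 46.9 FPKM in the Adipoq-/- library and 49.6 FPKM in the wild-type library. Its relative log2 ratio of 0.07 was the sole positive one among the 9 genes, and it was negative on the values as deposited (-0.077), with equal upper quartiles (-0.013) and with summed FPKM made equal (-0.23). Among genes with a mean of 20 to 100 FPKM, 45.7% had a lower ratio than Ppp1r3c. Per Gys2 transcript there was 1.41 of Ppp1r3c in the Adipoq-/- library and 1.19 in the wild-type library, and 0.809 of Ppp1r3b in the Adipoq-/- library against 0.746 in the wild-type library. The targeting subunits thus took a larger share of the summed FPKM of the 9 genes in the Adipoq-/- library, 12.2% for Ppp1r3c and 6.98% for Ppp1r3b, than in the wild-type library, 9.68% and 6.07%.

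The order of abundance changed in the middle of the group. In the Adipoq-/- library it ran Pygl, Ugp2, Ppp1r3c, Pgm2, Gys2, Ppp1r3b, Gbe1, Phka2 and Gyg. In the wild-type library Pgm2 stood above Ppp1r3c, and Gbe1 above both Gys2 and Ppp1r3b. In the Adipoq-/- library Ppp1r3b and Gbe1 were 0.342 FPKM apart, and with 1 library a genotype the order of such neighbours has no measured error. Pygl ranked 936th of all gene symbols by FPKM in the Adipoq-/- library and 670th in the wild-type library.

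The ratio between the libraries moved with transcript length over all genes, so the glycogen genes were also set against genes of like length. Across 11569 genes, which are not independent replicates, its Spearman rho with the longest GENCODE M21 transcript was -0.42. The glycogen genes are of middle to long size, from 1922 nt for Gyg to 4386 nt for Ppp1r3b, where length bins had medians between 0.02 and -0.11. Relative to genes of like length the log2 ratio was -0.45 for Gbe1, -0.34 for Phka2, -0.25 for Pygl, -0.21 for Ugp2 and -0.12 for Gys2. For the row Pgm2 it was -0.31 or -0.34, depending on which phosphoglucomutase gave the length. Gyg was at -0.06, whereas Ppp1r3c (0.12) and Ppp1r3b (0.061) were above genes of their length, so Ppp1r3b changed side. The part of length in these differences, and in the within-library ratios of genes of unlike length, was not tested further.

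**Figure D3:**
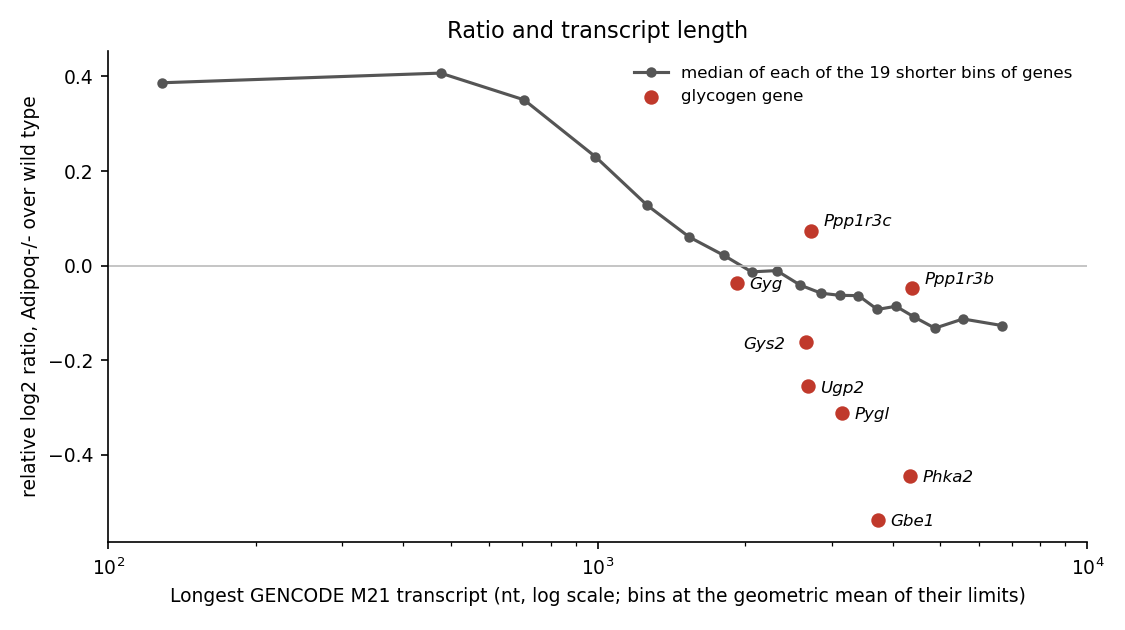
Relative log2 ratio of Adipoq-/- over wild type (y axis) against the longest annotated transcript (x axis, nt, log scale). The line joins the medians of the 19 shorter of 20 bins of all genes, and points are 8 glycogen genes, without Pgm2, whose length is ambiguous. Gbe1, Phka2, Pygl, Ugp2, Gys2 and Gyg lie below the line, and Ppp1r3b and Ppp1r3c above it.

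Other genes of the pathway were taken from 5 lists with 40 symbols, of which 28 had values and 25 reached 1 FPKM in at least 1 library. None of the 25 was 1.5-fold or more lower, against 2.61% of all genes, or 1.5-fold or more higher, against 6.73%. The count depended on scaling, since Gckr was past this limit on the values as deposited (-0.62), and Gckr (-0.77) and Slc2a2 (-0.66) were with equal sums. Their median was -0.05, with 15 below and 10 above the all-gene median. At the distance of 0.32 (log2), 2 of the 25 were lower, against 11.7% of all genes, and none higher, against 19.8%.

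Among genes of breakdown and storage, the lysosomal glucosidase Gaa had 15.7 FPKM in the Adipoq-/- library and 19.6 FPKM in the wild-type library (relative log2 ratio -0.15). The glycogen-binding protein gene Stbd1 had 24.8 FPKM in the Adipoq-/- library and 26.8 FPKM in the wild-type library (0.04), so both lay above Pygl on the ratio scale. The phosphatase Epm2a, which removes phosphate from glycogen, was at 0.722 FPKM in the Adipoq-/- library and 1.12 FPKM in the wild-type library, near the limit of 1 FPKM.

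The catalytic subunits of protein phosphatase 1 stayed near the all-gene median, like the targeting subunits. Their relative log2 ratios were -0.06 for Ppp1ca, 0.12 for Ppp1cb and 0.09 for Ppp1cc, and all were negative with equal sums (-0.37, -0.18 and -0.21). Ppp1ca, the most abundant of them, had 92.2 FPKM in the Adipoq-/- library and 107 FPKM in the wild-type library. The calmodulin genes, whose product is the delta subunit of phosphorylase kinase, ranged from -0.11 for Calm3 to 0.12 for Calm2, and from -0.40 to -0.18 with equal sums.

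Upstream of the enzymes, 6 of 7 genes lay below the all-gene median, with a list median of -0.16. The protein kinase A subunits Prkar2a (4.003 FPKM in the Adipoq-/- library and 5.86 FPKM in the wild-type library, -0.30) and Prkaca (13.4 FPKM in the Adipoq-/- library and 18.4 FPKM in the wild-type library, -0.27) were lowest. The glucagon receptor Gcgr had 83.9 FPKM in the Adipoq-/- library and 107 FPKM in the wild-type library (-0.20). Gsk3a and Gsk3b, kinases that inhibit glycogen synthase, were at -0.13 and 0.01.

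Of the genes around glucose 6-phosphate, 5 are given here, and they include both genes past 0.32 on the lower side, a limit that 11.7% of all genes passed. Gckr, a regulatory protein of sugar metabolism in liver, had 29.5 FPKM in the Adipoq-/- library and 45.8 FPKM in the wild-type library (-0.47). The glucose transporter Slc2a2, which carries glucose in both directions, had 55.4 FPKM in the Adipoq-/- library and 78.6 FPKM in the wild-type library (-0.35). Their ratios lay near those of Phka2 and Pgm2. On the release side, G6pc, the catalytic subunit of glucose-6-phosphatase, was at 0.19 and its transporter Slc37a4 at 0.17, and with equal sums both were negative (-0.12 and -0.14). Both lay near the middle of genes of like abundance. A lower ratio than that of G6pc was found for 45.1% of genes averaging 100 FPKM or more. For Slc37a4 it was 55.9% of genes with a mean of 20 to 100 FPKM. G6pc3, the broadly expressed form of the catalytic subunit, was at -0.04.

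**Figure D4:**
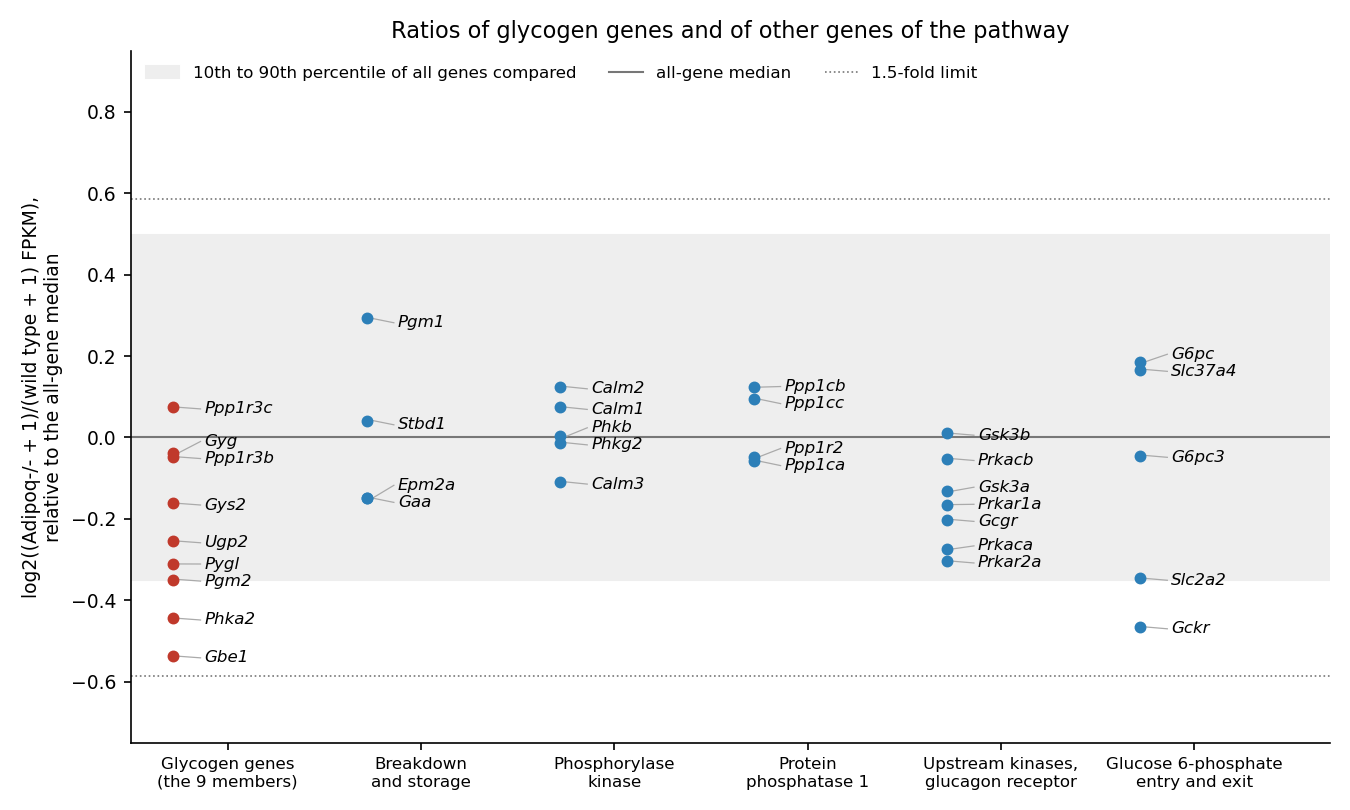
Log2 ratio of Adipoq-/- over wild type relative to the all-gene median (y axis), with 1 point a gene, for the 9 glycogen genes (left) and 5 lists of other genes of the pathway (1 pooled library per genotype). Shading spans the 10th to 90th percentile of all genes (-0.35 to 0.50), and dotted lines mark 1.5-fold. No point lies outside the dotted lines, and Gbe1, Phka2 and Gckr lie below the shading.

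Both libraries carried the markers of hepatocytes at high levels, and 5 of 5 were present, from 377 to 14031 FPKM in the Adipoq-/- library and from 438 to 17522 FPKM in the wild-type library. They summed to 28274 FPKM in the Adipoq-/- library and 31374 FPKM in the wild-type library, and their median relative log2 ratio was 0.06. The sum followed Alb (14031 FPKM in the Adipoq-/- library and 17522 FPKM in the wild-type library), while Apoa1 was higher in the Adipoq-/- library (6541 against 6039 FPKM). All 5 markers averaged 100 FPKM or more, and the median of all genes at that level was 0.26. As deposited, 4 of 5 were lower in the Adipoq-/- library, as were 66.9% of all genes compared. Markers of Kupffer cells had 5 of 5 values, summing to 217 FPKM in the Adipoq-/- library and 173 FPKM in the wild-type library. All 5 lay above the all-gene median, from 0.06 to 1.21, although FPKM as deposited were higher in the Adipoq-/- library for 3 of them. Most of the difference between the sums was Lyz2 (116 FPKM in the Adipoq-/- library and 72.5 FPKM in the wild-type library), while Clec4f and Cd5l were lower in the Adipoq-/- library as deposited. Endothelial markers summed to 52.5 FPKM in the Adipoq-/- library and 48.8 FPKM in the wild-type library, over 5 of 5 markers. Of these, 2 were higher and 3 lower in the Adipoq-/- library as deposited, and most of the sum was Clec4g (42.9 against 38.2 FPKM in the wild-type library). Cholangiocyte markers summed to 23.6 and 16.2 FPKM, over 3 of 5, and erythroid markers to 8617 and 7428 FPKM, over 3 of 3, in the Adipoq-/- and wild-type libraries. Most of the cholangiocyte sum was Spp1 (21.01 FPKM in the Adipoq-/- library and 13.4 FPKM in the wild-type library), while Sox9 was lower in the Adipoq-/- library as deposited, as was Alas2 of the erythroid list. Of the muscle list Acta1 alone was measured, at 1.66 FPKM in the Adipoq-/- library and 1.77 FPKM in the wild-type library. Of the adipocyte list Fabp4 and Cfd were measured, and they went in opposite directions. Fabp4 had 10.95 FPKM in the Adipoq-/- library and 9.61 FPKM in the wild-type library, and Cfd had 2.01 FPKM in the Adipoq-/- library and 13.3 FPKM in the wild-type library, so their sum (13.0 FPKM in the Adipoq-/- library and 22.9 FPKM in the wild-type library) followed Cfd. No measured marker was at 0, and the part of other cells in the lower glycogen gene ratios was not tested.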

How the data were processed

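The deposited values are FPKM, 1 per gene symbol and library, computed by the authors. The submitters' processing notes name TopHat, Cuffdiff and the mouse builds mm9 and NCBIM37. Versions, annotation, strand and row filters are not given in the sources. Libraries were assigned by their genotype label. The tables share 13352 rows, and 26 symbols occurred in 2 rows, of which the one with the larger mean was used. This touched none of the genes named for the pathway. Counts were not used, so depth is unknown. Whole reads could not be recovered from low values: of 1298 genes below 1 FPKM in each library, no more than 5 had an equal log2 ratio at 3 decimals. Summed FPKM were 891964 in the Adipoq-/- library and 798170 in the wild-type library.

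Ratios were log2 with 1 FPKM added, for genes reaching 1 FPKM in either library, centred on their median. This scale understates differences of low genes. With 1 library per genotype there is no p-value. Gene lengths came from GENCODE M21, by symbol or RefSeq synonym, for 96.5% of genes, in 20 bins of equal size. The text names all 9 members and measured genes of the pathway lists, some of whose genes are not reported here. The members and lists were chosen with earlier results of these data known. The ratio calculation was tested on simulated data whose planted differences were larger than those of the 9 genes. How well differences of the size reported here are recovered was not tested. Python 3.11.15, pandas 2.3.3, numpy 2.4.6, scipy 1.17.1 and matplotlib 3.10.9 were used.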

Additional observations from a re-analysis of the deposited data

How the results depend on the processing

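The count of glycogen genes at least 1.5-fold lower depended on how the libraries were scaled. It was 0 relative to the all-gene median (2.61% of all genes), 1 with equal upper quartiles (4.61%), 2 on FPKM as deposited (6.17%) or with equal sums without Mup and mitochondrial genome symbols (7.59%), and 4 with equal sums (12.5%), and it was 3 at a lower limit, 0.32 on the log2 scale (11.7%). The median log2 ratio of the 9 genes was -0.41 as deposited, -0.56 with equal sums and -0.45 with equal sums without Mup and mitochondrial symbols, and that of the other pathway genes was -0.20, -0.33 and -0.23 under the same settings. Ppp1r3c turned negative under these settings (-0.077, -0.23 and -0.12) and with equal upper quartiles (-0.013). These shifts follow from the scale factors, which move all genes of a library together. Relative to genes of like transcript length, Ppp1r3b turned positive (0.061). Pseudocounts of 0.1 and 0.5 FPKM, no minimum, a minimum of 5 FPKM (which leaves out Gyg) and summing duplicate rows moved none of the 9 members, their median or the median of the other pathway genes together by over 0.1. No glycogen gene was 1.5-fold or more higher under any setting tried. The ratio of Gys2 to Pygl moved by less than 0.1 (log2) under both of its alternatives. The lengths of Pgm2 were tried after its symbol was seen to be ambiguous. No paired analysis was possible because each genotype has 1 library. Unknown depth and the lack of replicates limit every value.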
